A study of Drosophila melanogaster with 12 samples.

Results

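Wing imaginal discs cultured with 200 nM 20-hydroxyecdysone (20E) were compared with discs cultured with 20 nM 20E, a 10-fold lower dose of the same hormone. The comparison covered every gene with a normalised count of 10 or more in 3 or more of the 6 libraries at these doses, which was 8155 of the 12216 genes in the deposited table. The discs came from Drosophila melanogaster larvae of the wild-type strain w1118. They were taken 24 h after the moult into the last larval instar and kept for 2.5 h at 25 °C in medium with the hormone, per the labels. Each of the 200 nM and 20 nM groups had 3 libraries of poly(A)-selected RNA. Groups at 0 and 2000 nM, also with 3 libraries each, shared the strain, age, time and temperature and entered the fit. Whether replicates came from separate cultures or animals is not stated, and p-values therefore cover only the spread among these libraries. Whole discs were sequenced, so fewer cells of a type and less RNA per cell cannot be told apart.

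20E is the active insect moulting hormone. It enters cells through an importer and binds a heterodimer of the nuclear receptors EcR and Ultraspiracle (usp), which sits on hormone response elements and represses or activates genes depending on ligand. The early genes it switches on encode transcription factors, such as Eip74EF, Eip75B and Broad, which act in turn on early-late factors, late factors and effectors of metamorphosis. In the wing disc, a sac of epithelium that makes the adult wing and body wall, rising hormone at the end of larval life accompanies the end of growth, the laying down of new apical matrix and the unfolding of the disc.

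Read totals were 9910007, 10097976 and 15364096 at 200 nM, against 9034719, 27006374 and 22613301 at 20 nM. On the log2 scale the first principal component of the 6 libraries, with 48.2% of the variance, placed the 200 nM libraries between 16.6 and 20.2 and the 20 nM libraries between -20.6 and -16.7. The second, with 20.1%, set 20 nM replicate 1, the shallowest library, apart at 20.8. Replicates 1 to 3 of a dose are written R1 to R3. The 6 wing disc markers were all present, with summed normalised counts of 39601 to 46507 at 200 nM and 37748 to 41625 at 20 nM. Of these 6, nub and ap were higher, a count of 0 without R2 or R3 at 20 nM, and 1 without R1 or R3 at 200 nM. Of 10 blood cell markers 4 were high enough to test, with sums of 174 to 325 at 200 nM and 210.4 to 433 at 20 nM, and NimC1, eater and He were below the filter. Of 8 fat body markers 5 were tested, with sums of 108 to 384 and 101 to 249.9, and of 5 salivary gland markers 1 was, with sums of 16.2 to 17.9 and 5.06 to 22.6. The 6 tracheal markers summed to 24381 to 30631 at 200 nM and 31059 to 33381 at 20 nM, without overlap, and none was called (limma, 1 higher and 2 lower at an unadjusted p under 0.05, 0 with limma-voom), but 1 was higher without R3 at 20 nM. Of the 7 neuron and glia markers 3 were tested, with sums of 776 to 936 at 200 nM and 603 to 799 at 20 nM.

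Raising the hormone 10-fold changed 681 genes, 8.35% of those tested, by limma's moderated test with Benjamini-Hochberg adjustment over the 8155 genes at a threshold of 0.05. Of these, 357 were higher at 200 nM than at 20 nM (4.38%) and 324 were lower (3.97%). Differences under 1.5-fold made up 166 of the 357 higher genes and 168 of the 324 lower ones. At least 2-fold differences were found for 107 higher and 69 lower genes, and at least 8-fold differences for 11 higher and 3 lower genes. The normalised counts of the 200 and 20 nM libraries did not overlap for 356 of the 357 higher and 323 of the 324 lower genes. These genes were called from the same values, so the lack of overlap is no independent evidence of a difference. The median log2 difference of all genes tested was 0.00117. The 2000 and 0 nM libraries, which are not part of this comparison, differed with the same sign for 355 of the 357 higher genes and 319 of the 324 lower ones, against 48.9% and 51.1% of all genes tested. The exceptions included Eip74EF, an early gene.

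**Figure D1:**
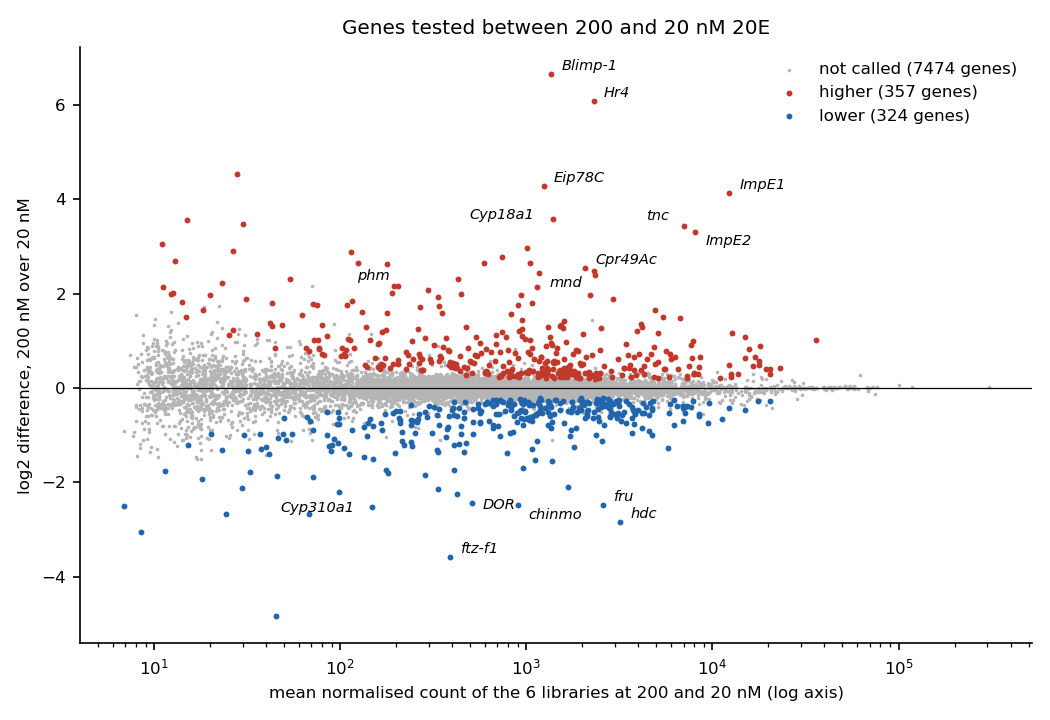
Log2 difference between 200 and 20 nM (vertical axis) against the mean normalised count of the 6 libraries (horizontal log axis) for the 8155 genes tested. The 357 genes called higher are red, the 324 called lower are blue and the others grey, and the higher genes reach further from 0 than the lower ones, up to 6.65 for Blimp-1.

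The largest rises were in genes of early-late factors, of which 4 of the 5 tested were higher at 200 nM. Hr4 (FBgn0264562), a nuclear receptor gene that itself represses early genes at the start of metamorphosis, stood at 4545, 4612 and 4437 at 200 nM, against 86.02, 46.4 and 73.1 at 20 nM. Every 200 nM library was far above every 20 nM library, a difference of 6.07 ± 0.16 (adjusted p = 3.7e-11) log2 ± SE, or 67.3-fold. Blimp-1 (FBgn0035625), a zinc-finger repressor that delays ftz-f1 in prepupae, had normalised counts of 2491, 2951 and 2591 at 200 nM, against 65.8, 13.6 and 18.3 at 20 nM. Those 20 nM levels rest on 39, 24 and 27 reads, and the difference of 6.65 ± 0.44 (adjusted p = 2.48e-07) log2 depends on the 1 added before the log. Eip78C (FBgn0004865), a nuclear receptor gene related to Eip75B, had 2346, 2346 and 2378 at 200 nM, against 155, 106 and 106 at 20 nM. It rose 19.4-fold, by 4.28 ± 0.16 (adjusted p = 6.68e-10) log2. Hr39, a nuclear receptor of the FTZ-F1 family, averaged 5469 ± 752 at 200 nM and 2353 ± 155 at 20 nM (SD, n = 3) and rose by 1.21 ± 0.09 (adjusted p = 1e-06) log2. The other member tested, the nuclear receptor gene Hr38, was at 6.28, 16.4 and 8.11 at 200 nM, against 20.2, 32.8 and 23.7 at 20 nM, with -1.31 ± 0.41 (adjusted p = 0.0677) log2, and was not called. It passed the threshold without 200 nM replicate 2 (0.0287) and with limma-voom (0.0401), with adjusted p over its alternatives of 0.0287 to 0.257.

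Early transcription factor genes moved less, and in both directions, with 3 of 7 higher and 1 lower. Broad (br, FBgn0283451), the zinc-finger factor that specifies pupal development, had 48085, 48595 and 48095 at 200 nM, against 27962, 21536 and 22209.5 at 20 nM. The groups did not overlap, and br rose by 1.02 ± 0.13 (adjusted p = 0.000133) log2. Sox14, an HMG-box factor that acts in metamorphosis, averaged 2238 ± 108 at 200 nM and 926 ± 35.98 at 20 nM (SD, n = 3), a rise of 1.27 ± 0.07 (adjusted p = 2.66e-08) log2. Eip75B (FBgn0000568), a haem-binding nuclear receptor, was at 8145, 6443 and 8505 at 200 nM, against 5313, 4692 and 4574 at 20 nM. It rose by 0.66 ± 0.11 (adjusted p = 0.00174) log2, 1.58-fold. Eip74EF (FBgn0000567), an ETS-domain factor, went the other way with 1291, 1152 and 1222 at 200 nM, against 2498, 2189.6 and 2144 at 20 nM. All 3 libraries at 200 nM lay below all 3 at 20 nM, and Eip74EF fell by 0.90 ± 0.08 log2 (adjusted p = 3.57e-06). Across the dose series from 0 to 2000 nM its means were 539, 2277, 1222 and 1517 normalised counts, so its level was highest at 20 nM. The bZIP factor gene vri, at 2816, 3254 and 2831 at 200 nM, against 2626, 2406 and 2174 at 20 nM, was not called (0.31 ± 0.20 (adjusted p = 0.494)). Neither was Kr-h1, a zinc-finger factor known for its response to juvenile hormone, at -0.41 ± 0.19 (adjusted p = 0.247). Kr-h1 shares 78.6% of its exonic bases with CG45075 on the same strand. The zinc-finger gene crol had a difference of 0.01 ± 0.10 log2.

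The receptor's own gene was lower at the higher dose. EcR (FBgn0000546) had 1976, 1703 and 1672 at 200 nM, against 2887, 2657 and 2795 at 20 nM, groups that did not overlap, and fell by 0.64 ± 0.09 log2 (adjusted p = 0.000293). Its partner usp was at 1419.7, 1559.6 and 1455 at 200 nM, against 1456, 1444 and 1446 at 20 nM, overlapping between doses, with a difference of 0.03 ± 0.06 (adjusted p = 0.906) log2, and 8.7% of its exonic bases are shared with Actn on the same strand. Of the 4 cofactors tested, taiman (tai), the p160 coactivator of EcR, rose by 0.40 ± 0.08 (adjusted p = 0.00748) log2, with averages of 6330.0 ± 477 at 200 nM and 4809 ± 358 at 20 nM (SD, n = 3). The corepressor genes Smr and alien and the cofactor gene rig differed by -0.11 ± 0.13, -0.06 ± 0.08 and -0.20 ± 0.09 log2 and were not called. Of its exonic bases, alien shares 30.0% with CG17906 on the opposite strand.

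The late factor ftz-f1 (FBgn0001078), a nuclear receptor gene known to be repressed by high 20E and expressed once the hormone has fallen in prepupae, gave the deepest fall of the named genes. Its normalised counts were 72.2, 43.3 and 63.9 at 200 nM, against 658, 678 and 809 at 20 nM. No 200 nM library came near the lowest 20 nM library, and ftz-f1 fell 11.99-fold, a difference of -3.58 ± 0.38 (adjusted p = 2.33e-05) log2. The long non-coding RNA gene lncRNA:CR45939 covers 29.4% of its exonic bases on the same strand.

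Among 10 tested effector genes, 5 were higher and 2 were lower at 200 nM. ImpE1 (FBgn0001253), a gene with LDL-receptor repeats known for its induction in discs, had 25208, 22708 and 21811 at 200 nM, against 1806, 1159 and 1088 at 20 nM. ImpE2 (FBgn0001254), whose product is linked to disc eversion, had 13541, 17362 and 12992 at 200 nM, against 2419, 1143 and 1163 at 20 nM. Neither gene's groups overlapped, and they rose by 4.14 ± 0.24 (adjusted p = 6.29e-08) and 3.30 ± 0.34 (adjusted p = 1.96e-05) log2. ImpE3 averaged 115.4 ± 23.3 at 200 nM and 44.8 ± 0.976 at 20 nM (SD, n = 3) and rose by 1.33 ± 0.21 (adjusted p = 0.000745) log2. ImpL2, which encodes a secreted protein that binds insulin-like peptides, had 441, 1151 and 568 at 200 nM, against 172, 193 and 135 at 20 nM. It rose 3.99-fold, by 2.00 ± 0.33 (adjusted p = 0.00127) log2, and shares 61.9% of its exonic bases with CG46460 on the same strand. The small heat shock protein gene Hsp27, a classical ecdysone target, averaged 23289 ± 1655 at 200 nM and 12608 ± 1066 at 20 nM (SD, n = 3) and rose by 0.89 ± 0.15 (adjusted p = 0.00184) log2. The falls were small, at -0.42 ± 0.10 log2 for Eip55E, which encodes a cystathionine gamma-lyase, and -0.35 ± 0.09 for MsrA, a methionine sulfoxide reductase. The call of Eip55E ended without R2 at 20 nM (0.0734), without R3 at 20 nM (0.0817) and without R2 at 200 nM (0.0829), with adjusted p of 0.0124 to 0.0829 over its alternatives. The call of MsrA ended without R1 or R3 at 200 nM, or any of R1 to R3 at 20 nM, with adjusted p of 0.0167 to 0.152 over its alternatives. Eip63E, Edg91 and ImpL1 were not called, at -0.04 ± 0.08, -0.11 ± 0.22 and 0.49 ± 0.43 log2. In all, 13 of the 29 tested ecdysone response genes were higher and 5 lower, with a median of 0.31 log2. These were 44.8% and 17.2%, against 4.38% and 3.97% of all genes. The 5 numbered 3 without R2 or R3 at 20 nM. Several of these genes were chosen as responders to the hormone in the literature, so their count is no independent evidence of a response. All the gene lists were also chosen with earlier results of these data known, so their shares are no independent evidence either.

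**Figure D2:**
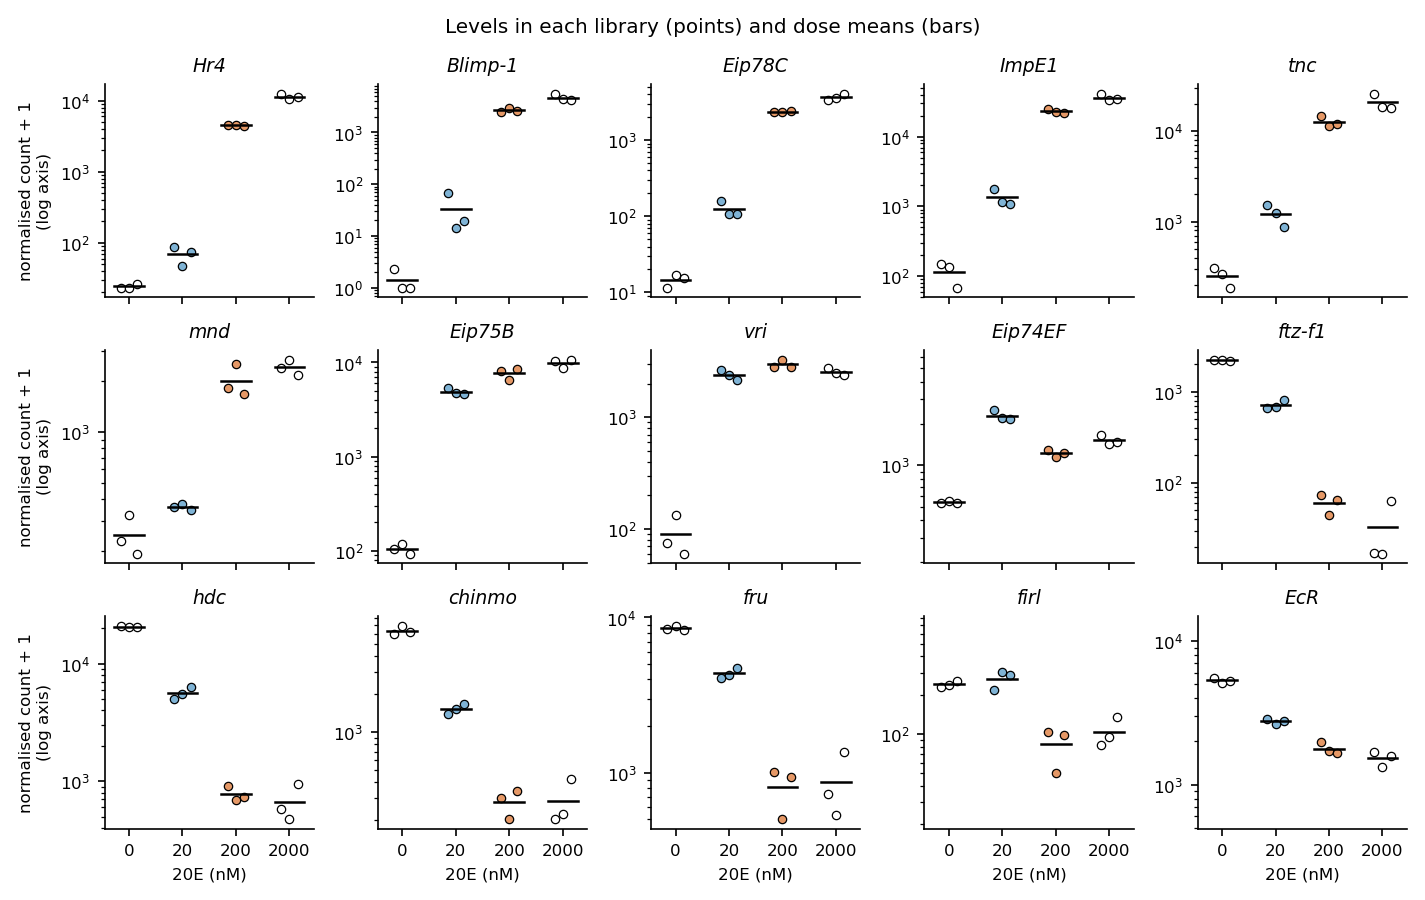
Normalised counts plus 1 (log axes) of 15 genes in every library at 0, 20, 200 and 2000 nM 20E, with points for libraries and bars for dose means. Hr4, Blimp-1, Eip78C, ImpE1, tnc and mnd are far higher in the 200 nM libraries than in the 20 nM ones, ftz-f1, hdc, chinmo, fru and firl are far lower, and Eip75B and vri are already high at 20 nM.

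Genes that make, move or destroy the hormone also differed. Cyp18a1 (FBgn0010383), the cytochrome P450 that inactivates 20E by hydroxylation, had 2258, 2536 and 2927 at 200 nM, against 184, 275 and 187 at 20 nM. It rose 12.05-fold, by 3.59 ± 0.26 (adjusted p = 5.93e-07) log2, with a wide gap between the groups. The synthesis gene phm, a hydroxylase of the prothoracic gland, had 322, 324 and 362 at 200 nM, against 70.8, 80.3 and 71.7 at 20 nM. It rose by 2.16 ± 0.22 (adjusted p = 1.66e-05) log2, and its 20 nM counts were low and did not overlap those at 200 nM. Of the other 4 synthesis genes tested, with differences down to -0.82 log2, none was called. Both transport genes were lower. Oatp74D, the importer through which 20E enters cells, averaged 1776 ± 95.8 at 200 nM and 2486 ± 178 at 20 nM (SD, n = 3) and fell by 0.48 ± 0.07 log2 (adjusted p = 0.000245). E23, an ABC transporter gene known to dampen the ecdysone response, had 29.8, 38.8 and 30.4 at 200 nM, against 64.1, 66.7 and 65.6 at 20 nM and fell by 0.98 ± 0.20 log2 (adjusted p = 0.00646).

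Outside the hormone pathway, the largest rises by the naming rule were in matrix, cuticle and transporter genes. Tenectin (tnc, FBgn0039257), an integrin-binding matrix protein, had 14800.2, 11571 and 12067 at 200 nM, against 1513, 1257 and 869 at 20 nM. It rose 10.8-fold, by 3.43 ± 0.21 (adjusted p = 9.57e-08) log2. The cuticle protein gene Cpr49Ac had 3066, 4262 and 3251 at 200 nM, against 853, 491 and 517 at 20 nM, a rise of 2.54 ± 0.19 (adjusted p = 7.09e-07) log2. Minidiscs (mnd, FBgn0002778), an amino acid transporter gene named for the small discs of its mutants, had 1798, 2513 and 1656 at 200 nM, against 358, 376 and 344 at 20 nM. It rose 5.44-fold, by 2.44 ± 0.17 (adjusted p = 4.66e-07) log2. Pathetic (path), another amino acid transporter gene that promotes growth, averaged 3962 ± 1292 at 200 nM and 729.8 ± 100.1 at 20 nM (SD, n = 3) and rose by 2.40 ± 0.20 (adjusted p = 2.92e-06) log2. The cytochrome-b family gene nemy averaged 321 ± 20.4 at 200 nM and 70.4 ± 3.28 at 20 nM (SD, n = 3) and rose by 2.17 ± 0.30 (adjusted p = 0.000289) log2. In each of these 5 genes the lowest 200 nM library was above the highest 20 nM library, which the naming rule required.

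Several genes of growth restraint and BTB zinc-finger factors were among the large falls. Headcase (hdc, FBgn0010113), which marks imaginal cells and restrains their growth, had 914, 694 and 726 at 200 nM, against 5008, 5469 and 6268 at 20 nM. It fell 7.19-fold, a difference of -2.85 ± 0.19 (adjusted p = 2.29e-07) log2, and its groups lay far apart. Chinmo (FBgn0086758), a BTB zinc-finger factor of early larval identity that opposes Broad, had 300.0, 203 and 339 at 200 nM, against 1378, 1529 and 1679 at 20 nM and fell by 2.47 ± 0.23 log2 (adjusted p = 7e-06). Fruitless (fru, FBgn0004652), another BTB zinc-finger factor, had 1008, 498 and 930.0 at 200 nM, against 4098, 4285 and 4692 at 20 nM and fell by 2.49 ± 0.28 log2 (adjusted p = 4.56e-05). In all 3 genes 200 nM replicate 2 was the lowest library. The BTB repressor gene ken averaged 706 ± 84.4 at 200 nM and 2051 ± 101 at 20 nM (SD, n = 3) and fell by 1.54 ± 0.14 log2 (adjusted p = 7e-06). Of 11 tested genes of growth restraint and BTB factors 4 were lower, 36.4% against 3.97% of all genes. They were hdc, fru, ken and psq, the last at -0.31 ± 0.08 log2, while chinmo is counted with the temporal identity factors. The list was chosen with earlier results of these data known, so its share is no independent evidence. The BTB gene bab2, which patterns appendages, was higher by 0.86 ± 0.09 (adjusted p = 3.45e-05) log2.

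Temporal identity factors split in the same comparison, with 2 of 5 higher and 2 lower. These were 40% each, against 4.38% higher and 3.97% lower of all genes. Abrupt (ab), a BTB factor, averaged 1583 ± 108 at 200 nM and 3166 ± 181 at 20 nM (SD, n = 3) and fell by 1.00 ± 0.06 log2 (adjusted p = 1.55e-07), beside the fall of chinmo and the rise of br. The RNA-binding protein gene Syp rose by 0.42 ± 0.12 (adjusted p = 0.0491) log2. The call of Syp ended without R1 or R3 at 200 nM, R2 or R3 at 20 nM, R2 or R3 at 0 nM, or R3 at 2000 nM and with no filter, with the filter over all 12 libraries, after median centring and with limma-voom, with adjusted p of 0.000523 to 0.188 over its alternatives.

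The other large falls were in genes of varied function. DOR, which encodes a coactivator of EcR that also acts in autophagy, had 166, 148 and 163 at 200 nM, against 815, 896 and 877 at 20 nM. It fell 5.39-fold, a difference of -2.43 ± 0.27 (adjusted p = 3.71e-05) log2. Cyp310a1, a cytochrome P450 gene, had 62.8, 22.4 and 52.7 at 200 nM, against 263, 221 and 263 at 20 nM and fell by 2.53 ± 0.34 log2 (adjusted p = 0.000196). For both genes every 200 nM library was below every 20 nM library, which the naming rule required. The Osiris family gene Osi14 was lower at -2.21 ± 0.28 log2, atilla, a Ly6 family gene used as a lamellocyte marker in blood, at -1.89 ± 0.23, and firl at -1.74 ± 0.25. Ude, a nuclease gene of uracil-containing DNA, was lower at -1.74 ± 0.30 log2, Vajk2 at -1.69 ± 0.18 and the anion transporter gene Picot at -1.77 ± 0.30. Their adjusted p-values lay between 2.14e-05 for Vajk2 and 0.00194 for Ude. The call of Picot ended with limma-voom, with adjusted p of 0.000994 to 0.0794 over its alternatives. Ude shares 30.8% of its exonic bases with Ets96B on the opposite strand. The 4 tested markers of the blood cell list, which does not hold atilla, were not called.

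The place of this step in the dose series differed between genes. The steps from 0 to 20 nM and from 20 to 200 nM share the 20 nM libraries, so the steps were compared by a direct contrast in the same fit, and their values are given side by side. The step from 20 to 200 nM was more positive for 14 genes (0.172% of those tested) and more negative for 11 (0.135%). Hr4 changed by 6.07 ± 0.16 log2 here, against 1.47 ± 0.16 between 20 and 0 nM, a difference of steps of 4.60 ± 0.28 (adjusted p = 5.15e-07). The transporter gene mnd changed by 2.44 ± 0.17 here, against 0.57 ± 0.17, a difference of 1.87 ± 0.30 (adjusted p = 0.0135). Mur2B, a mucin-related gene, was at 1.34 ± 0.20 here, against -0.56 ± 0.20, and sca, a secreted regulator of Notch signalling, at 0.37 ± 0.08, against -0.35 ± 0.08. SP1029, an aminopeptidase gene, and the transcription factor gene Glut4EF also had larger steps here, by 0.99 ± 0.18 (adjusted p = 0.0365) and 0.95 ± 0.18 (adjusted p = 0.0368). Glut4EF shares 27.4% of its exonic bases with CG46467 on the same strand, and sca shares 10.4% with asRNA:CR45137 on the opposite strand. Eip75B changed by 0.66 ± 0.11 log2 here, against 5.53 ± 0.11 between 20 and 0 nM, a difference of -4.87 ± 0.20 (adjusted p = 9.6e-09). For vri the values were 0.31 ± 0.20 and 4.82 ± 0.20, with a difference of -4.52 ± 0.35 (adjusted p = 7.45e-06), and for bip1 they were 1.28 ± 0.06 and 2.76 ± 0.06, with a difference of -1.48 ± 0.10 (adjusted p = 2.87e-06). On the opposite strand, bip1 shares 15.8% of its exonic bases with asRNA:CR45867 and 8.8% with asRNA:CR45868. Eip74EF, pigs and net were higher at 20 nM than at 0 nM and lower at 200 nM than at 20 nM, with steps of -0.90 ± 0.08, -0.69 ± 0.17 and -0.39 ± 0.09 here, against 2.07 ± 0.08, 0.90 ± 0.17 and 0.72 ± 0.09. The counts of 14 and 11 moved with single libraries. The 14 were 7 without any 1 of the 20 nM libraries, 8 without 200 nM replicate 3 and 9 without 2000 nM replicate 1. The 11 were 5 without 20 nM replicate 1, 7 without 20 nM replicate 2 or 3, 18 without 200 nM replicate 1 and 20 without 2000 nM replicate 3. The differences of steps of Hr4, Eip75B, vri, Eip74EF and bip1 were called under every alternative, while the call of mnd ended without R1 at 20 nM (0.0723), without R2 at 20 nM (0.0745) and without R3 at 20 nM (0.101), with adjusted p of 0.000311 to 0.101 over its alternatives. The call of net in this step ended without R1 at 20 nM (0.077), without R2 at 200 nM (0.059) and without R3 at 200 nM (0.0632), with adjusted p of 0.0156 to 0.077 over its alternatives. The call of net for the difference of steps ended without R1 at 20 nM (0.0648), with adjusted p of 0.00357 to 0.0648 over its alternatives.

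The call of pigs in this step ended without R1 at 20 nM (0.0565), without R2 at 20 nM (0.0906), without R3 at 20 nM (0.0592) and without R2 at 200 nM (0.0575), with adjusted p of 0.00539 to 0.0906 over its alternatives. For the difference of steps, calls of pigs, sca, SP1029, Glut4EF and Mur2B each ended without any 1 of the 20 nM libraries, among other alternatives, with adjusted p up to 0.309. The lowest adjusted p over their alternatives was 0.0119. Other libraries whose removal ended a call were 200 nM replicate 1, 2 or 3, 0 nM replicate 1, 2 or 3 and 2000 nM replicate 1 or 2.

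The next step, from 200 to 2000 nM, was compared in the same way. The contrast of the steps from 200 to 2000 nM and from 20 to 200 nM, which share the 200 nM libraries, was negative for 65 genes (0.797%) and positive for 45 (0.552%). Blimp-1 changed by 0.80 ± 0.44 log2 between 2000 and 200 nM, a difference of steps of -5.85 ± 0.77 (adjusted p = 0.0012). For Hr4 the next step was 1.33 ± 0.16, with a difference of -4.75 ± 0.28 (adjusted p = 1.38e-06), and for Eip78C it was 0.63 ± 0.16, with -3.65 ± 0.27 (adjusted p = 6.78e-06). ImpE1, tnc and ImpE2 had next steps of 0.65 ± 0.24, 0.69 ± 0.21 and 0.43 ± 0.34, with differences of -3.49 ± 0.42 (adjusted p = 0.000514), -2.74 ± 0.36 (adjusted p = 0.0012) and -2.86 ± 0.59 (adjusted p = 0.0304). Among the falls, hdc changed by -0.27 ± 0.19 log2 in the next step, a difference of 2.57 ± 0.33 (adjusted p = 0.000934), and chinmo by -0.02 ± 0.23, a difference of 2.45 ± 0.40 (adjusted p = 0.00666). For fru, DOR, atilla and Cyp310a1 the next steps were 0.05 ± 0.28, -0.21 ± 0.27, 0.45 ± 0.23 and 0.31 ± 0.34 log2, with differences of 2.54 ± 0.49 (adjusted p = 0.0227), 2.22 ± 0.47 (adjusted p = 0.034), 2.33 ± 0.39 (adjusted p = 0.00931) and 2.84 ± 0.59 (adjusted p = 0.0304). The late factor ftz-f1 had a next step of -1.17 ± 0.38 log2. The 65 were 42 without 20 nM replicate 2, 43 without 20 nM replicate 3 or 200 nM replicate 1, 33 without 200 nM replicate 2 and 34 without 200 nM replicate 3. The 45 were 29 without 20 nM replicate 1, 10 without 20 nM replicate 2 or 3, 8 without 200 nM replicate 2, 11 without 200 nM replicate 3 and 24 without 2000 nM replicate 3. The call of chinmo for this contrast ended without R2 at 200 nM (0.0618), with adjusted p of 0.00153 to 0.0618 over its alternatives. The call of atilla ended without R2 at 200 nM (0.0618) and with limma-voom, with adjusted p of 0.00311 to 0.0618 over its alternatives. The call of fru ended without R2 at 20 nM (0.0559), without R3 at 20 nM (0.0583), without R2 at 200 nM (0.141) and without R3 at 200 nM (0.0554), with adjusted p of 0.00564 to 0.141 over its alternatives. The call of DOR ended without any of R1 to R3 at 200 nM, or any of R1 to R3 at 20 nM and with limma-voom, with adjusted p of 8.38e-05 to 0.195 over its alternatives. The call of Cyp310a1 ended without R2 or R3 at 200 nM, any of R1 to R3 at 20 nM, or R2 or R3 at 2000 nM and with limma-voom, with adjusted p of 0.007 to 0.15 over its alternatives. The call of ImpE2 ended without any of R1 to R3 at 200 nM, R2 or R3 at 20 nM, or R1 or R3 at 2000 nM, with adjusted p of 0.00435 to 0.202 over its alternatives.

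**Figure D3:**
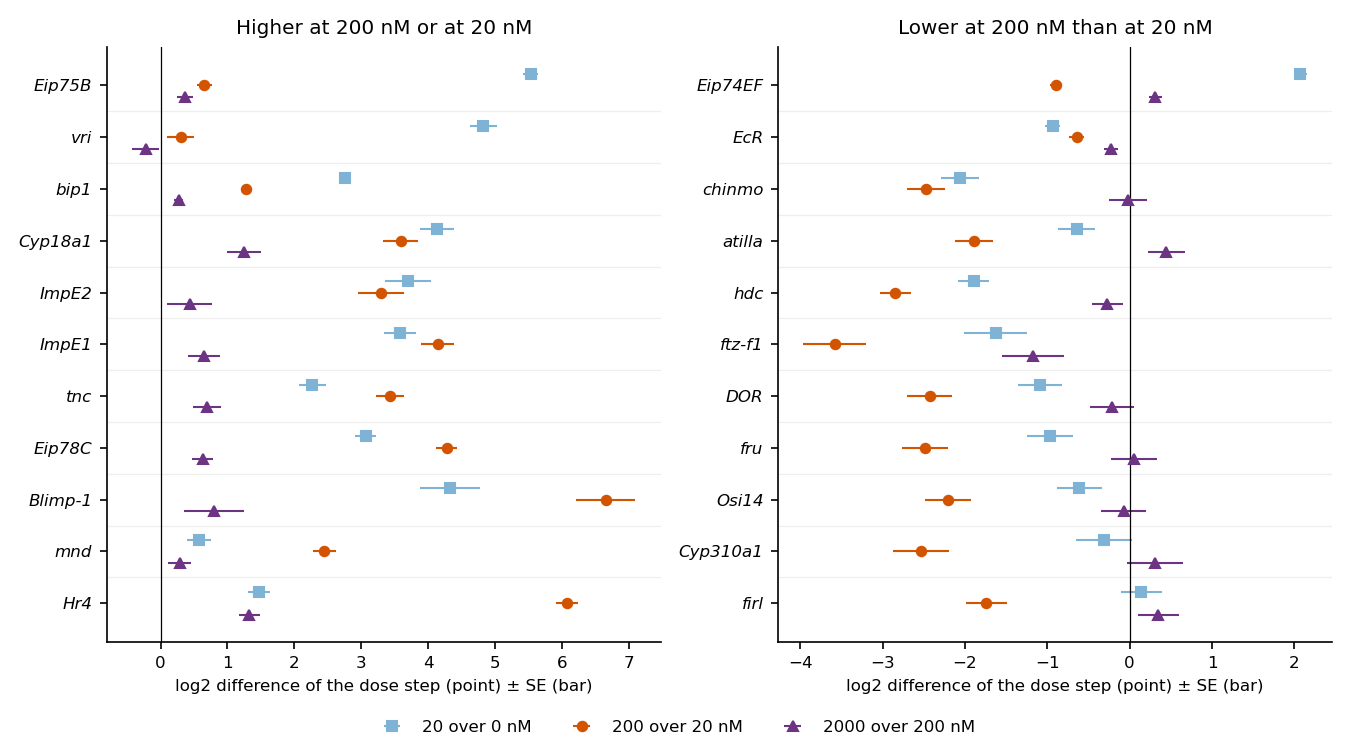
Log2 difference (points) ± SE (bars) of 22 genes for the 3 dose steps: 20 over 0 nM (blue squares), 200 over 20 nM (orange circles) and 2000 over 200 nM (purple triangles). Hr4 and mnd have their largest step between 200 and 20 nM, Eip75B, vri and bip1 between 20 and 0 nM, and Eip74EF changes sign between those 2 steps.

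Of 62 G2/M and mitosis genes tested, 7 were lower at 200 nM, 11.3% against 3.97% of all genes, and the list's median was -0.18 log2, against 0.00117 for all genes, with 52 of the 62 below 0. None was called higher by limma or limma-voom, nor at an unadjusted p under 0.05, where 22 were lower. String (stg, FBgn0003525), the phosphatase that drives entry into mitosis, had 1927, 2461 and 2142 at 200 nM, against 2672, 3003 and 2956 at 20 nM and fell by 0.41 ± 0.10 log2 (adjusted p = 0.024). The cytokinesis genes tum and feo were lower at -0.42 ± 0.07 and -0.29 ± 0.07 log2, and the kinesin gene cana at -0.29 ± 0.07. The others were the spindle genes mars and ncd and the cyclin gene CycB3, at -0.34 ± 0.09, -0.31 ± 0.08 and -0.25 ± 0.07 log2. The mitotic kinase genes Cdk1, polo and aurA differed by 0.01 ± 0.06, -0.10 ± 0.07 and -0.27 ± 0.12 log2 and were not called. These were small differences, and the count of 7 was 1 without R3 at 200 nM, and 2 without R1 at 20 nM, and 3 without R2 at 200 nM, or R3 at 20 nM. The call of stg ended without R2 at 20 nM (0.102), without R3 at 20 nM (0.0921), without R1 at 200 nM (0.1) and without R3 at 200 nM (0.0808), with adjusted p of 0.00676 to 0.102 over its alternatives. The call of feo ended without R1 at 20 nM (0.0815), without R3 at 20 nM (0.0709), without R2 at 200 nM (0.0573) and without R3 at 200 nM (0.101), with adjusted p of 0.0117 to 0.101 over its alternatives. The call of cana ended without R1 at 20 nM (0.0589) and without R3 at 200 nM (0.0749), with adjusted p of 0.00218 to 0.0749 over its alternatives.

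Of 48 DNA replication and G1/S genes, 2 were higher and 1 lower, with a median of -0.00892 log2. These were 4.17% and 2.08%, against 4.38% and 3.97% of all genes, so the list as a whole did not exceed the share over all genes. Cdk4, the kinase partner of cyclin D, had 1457, 1422 and 1556 at 200 nM, against 1051, 1104 and 1153 at 20 nM and rose by 0.42 ± 0.06 (adjusted p = 0.000377) log2. E2f1, the activator of S-phase genes, averaged 9226 ± 279 at 200 nM and 7555 ± 249 at 20 nM (SD, n = 3) and rose by 0.29 ± 0.07 (adjusted p = 0.0144) log2. The CDK inhibitor gene dacapo (dap), which holds cells in G1, had 1553, 1515 and 1549.7 at 200 nM, against 2213, 1962 and 1929 at 20 nM and fell by 0.40 ± 0.08 log2 (adjusted p = 0.00426). The 200 and 20 nM libraries did not overlap for these 3 genes. CycE, the G1/S cyclin gene, was at 0.38 ± 0.12 (adjusted p = 0.087) log2. None of the 14 licensing or 22 replication fork genes was called, with differences of -0.15 to 0.11 and -0.29 to 0.22 log2. The call of E2f1 ended without R2 at 20 nM (0.0602), without R3 at 20 nM (0.0751) and without R3 at 200 nM (0.0716), with adjusted p of 0.00223 to 0.0751 over its alternatives. The count of 2 was 1 without R3 at 200 nM, or R2 or R3 at 20 nM.

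**Figure D4:**
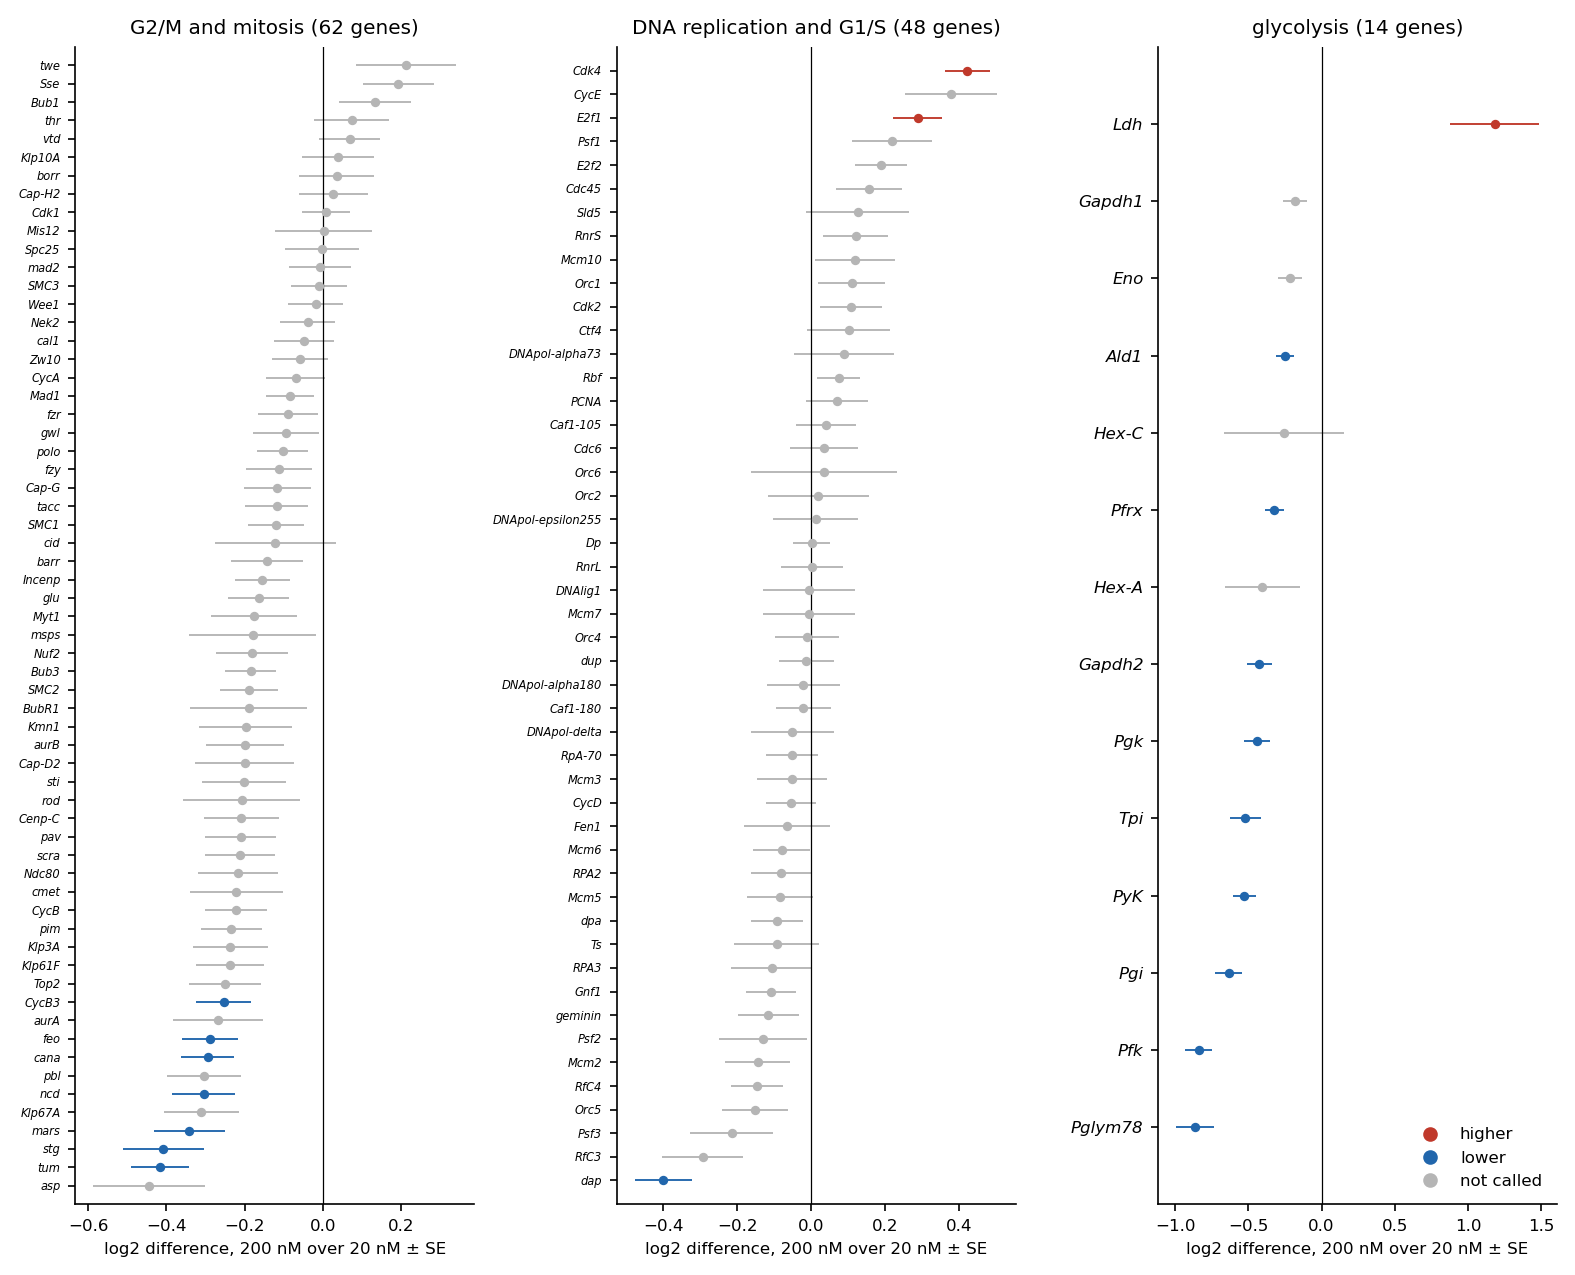
Log2 difference between 200 and 20 nM (points) ± SE (bars) for every tested member of 3 lists, with genes called higher in red, called lower in blue and not called in grey. Most G2/M genes lie below 0 with 7 called, replication genes lie on both sides of 0, and 9 of 14 glycolysis genes are called lower.

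Glycolysis had the highest share of lower members of the lists with more than 5 genes tested, with 9 of 14 lower and a median of -0.42 log2. The shares were 64.3% lower and 7.14% higher, against 3.97% and 4.38% of all genes. Pfk, the committed step of the pathway, had 947, 913 and 1058 at 200 nM, against 1693, 1598 and 1941 at 20 nM and fell by 0.84 ± 0.09 log2 (adjusted p = 3.44e-05). Pglym78, a phosphoglycerate mutase, had 261, 261 and 277 at 200 nM, against 444, 482 and 536 at 20 nM and fell by 0.86 ± 0.13 log2 (adjusted p = 0.000513). Pgi, the isomerase ahead of Pfk, was lower at -0.64 ± 0.09 log2 and PyK, pyruvate kinase, at -0.53 ± 0.08. Between them in the pathway, Ald1, Tpi, Gapdh2 and Pgk were at -0.25 ± 0.06, -0.52 ± 0.11, -0.43 ± 0.09 and -0.44 ± 0.09 log2 and the regulatory enzyme gene Pfrx at -0.32 ± 0.06, all called lower. Ldh, lactate dehydrogenase, was the 1 member called higher, at 697, 1595 and 831 at 200 nM, against 337, 434 and 538 at 20 nM, or 1.18 ± 0.30 (adjusted p = 0.0253) log2. Its call ended without 20 nM replicate 1 or 2 or 200 nM replicate 2. Of 64 oxidative phosphorylation genes none was called by limma or limma-voom, and 1 was lower at an unadjusted p under 0.05.

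Growth lists differed in their shares of called genes. None of 85 cytoplasmic ribosomal protein genes was called by limma without a replicate block or by limma-voom, with a median near 0 and 1 higher at an unadjusted p under 0.05. The higher count was 1 without R1 at 200 nM, or R2 or R3 at 2000 nM, as well as with a pseudocount of 5. Of 29 Myc and ribosome biogenesis genes 2 were higher, 6.9% against 4.38% of all genes. They were Mnt, the Max partner that opposes Myc, at 0.51 ± 0.10 (adjusted p = 0.00401) log2, and kra, a translation factor gene, at 0.54 ± 0.12 (adjusted p = 0.00924) log2. The call of kra ended without R3 at 200 nM (0.0551), with adjusted p of 0.00253 to 0.0551 over its alternatives. The lower count, 0, was 1 without R1 at 200 nM. Of 72 mitochondrial ribosomal protein genes 2 were lower, 2.78% against 3.97% of all genes. They were mRpL15 at -0.31 ± 0.09 and mRpS30 at -0.25 ± 0.07 log2. The count was 0 without R1 at 200 nM, R2 or R3 at 20 nM, R2 at 0 nM, or R1 at 2000 nM, as well as with no filter. It was 1 without R2 at 200 nM, R3 at 0 nM, or R3 at 2000 nM, as well as in a fit of the 6 libraries alone or with TMM scaling. Of 16 vacuolar ATPase genes 4 were lower, 25% against 3.97% of all genes, in a list likewise chosen with earlier results known. Vha68-2 averaged 3163 ± 67.5 at 200 nM and 4353 ± 137 at 20 nM (SD, n = 3) and fell by 0.46 ± 0.05 log2 (adjusted p = 5.68e-05). The other 3, Vha55, Vha100-2 and Vha26, were at -0.30 ± 0.06, -0.30 ± 0.06 and -0.20 ± 0.05 log2. The call of Vha26 ended without R2 or R3 at 200 nM, or any of R1 to R3 at 20 nM and in a fit of the 6 libraries alone, with adjusted p of 0.0111 to 0.104 over its alternatives.

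In the insulin, TOR and FOXO list, 4 of 27 genes were higher and 1 lower. These were 14.8% and 3.7%, against 4.38% and 3.97% of all genes, so the lower share did not exceed that over all genes. Pdk1, the kinase that activates Akt, had 8151, 7332 and 8461 at 200 nM, against 3129, 2789 and 2539.9 at 20 nM, without overlap, and rose 2.84-fold, by 1.50 ± 0.09 (adjusted p = 9.57e-08) log2. The insulin receptor gene InR had 8729, 6210.2 and 7259 at 200 nM, against 5127, 4263 and 3955 at 20 nM and rose by 0.73 ± 0.15 (adjusted p = 0.00604) log2. ImpL2, also an effector gene, and the lipase gene brummer (bmm), at 133, 304 and 164 at 200 nM, against 60.7, 77.5 and 48.7 at 20 nM, were the others, bmm rising by 1.61 ± 0.30 (adjusted p = 0.00313) log2. REPTOR, a transcription factor active when TOR is low, averaged 1208 ± 219.8 at 200 nM and 1989 ± 135 at 20 nM (SD, n = 3) and fell by 0.73 ± 0.13 log2 (adjusted p = 0.00239). The count of 1 was 2 without R3 at 2000 nM, and 3 without R1 at 200 nM.

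Of 22 Wnt pathway genes 4 were higher, 18.2% against 4.38% of all genes, and all 4 were among the 6 tested ligands. Wingless (wg, FBgn0284084), the ligand of the wing margin, had 1869, 1736 and 1633 at 200 nM, against 1211, 1216 and 1126 at 20 nM and rose by 0.56 ± 0.08 (adjusted p = 0.000412) log2. Wnt4 had 114.6, 131 and 86.2 at 200 nM, against 38.8, 31.1 and 24.4 at 20 nM, low counts that did not overlap, and rose by 1.79 ± 0.21 (adjusted p = 6.82e-05) log2. Wnt6 and Wnt2 rose by 0.36 ± 0.07 (adjusted p = 0.00385) and 0.44 ± 0.09 (adjusted p = 0.00605) log2. The 4 receptors and 12 transduction and feedback genes tested were not called, with differences of -0.20 to 0.28 and -0.19 to 0.24 log2. The list's lower count, 0, was 1 without R1 at 200 nM.

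Among 18 wing identity genes 7 were higher, 38.9% against 4.38% of all genes, with a median of 0.17 log2. They were the appendage gene Dll at 0.33 ± 0.08, the dorsal selector ap at 0.31 ± 0.07, the body wall genes eyg, ara, caup and tsh at 0.30 ± 0.06, 0.30 ± 0.06, 0.29 ± 0.08 and 0.26 ± 0.06, and the pouch gene nub at 0.24 ± 0.06 log2. Each difference was under 1.5-fold. The wing identity list was chosen with earlier results of these data known, so its share is no independent evidence. The count of 7 was 3 without R2 or R3 at 20 nM, and 4 without R1 at 200 nM. The list holds all 6 wing disc markers, whose summed counts were 39601 to 46507 at 200 nM and 37748 to 41625 at 20 nM, and 2 of the 7, nub and ap, are disc markers. The call of ap ended without R2 at 20 nM (0.0634), without R3 at 20 nM (0.0783) and without R1 at 200 nM (0.0553), with adjusted p of 0.000436 to 0.0783 over its alternatives. The call of nub ended without R2 at 20 nM (0.0594), without R3 at 20 nM (0.0879) and without R3 at 200 nM (0.078), with adjusted p of 0.00594 to 0.0879 over its alternatives. The call of tsh ended without R3 at 20 nM (0.0616), with adjusted p of 0.00246 to 0.0616 over its alternatives. Among markers of leg, haltere and eye discs, eya was higher by 0.54 ± 0.10 (adjusted p = 0.00258) log2, and the list's summed counts were 1136 to 1446 at 200 nM and 1053 to 1164 at 20 nM, where Scr, ey, toy and ato were below the filter.

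Shares called in other signalling pathways are to be set beside 4.38% higher and 3.97% lower of all genes tested. In the Dpp and activin list 2 of 19 were higher. Dawdle (daw), an activin-like ligand, had 31.4, 85.1 and 28.4 at 200 nM, against 5.06, 4.52 and 4.73 at 20 nM, which at 20 nM rests on 3, 8 and 7 reads, and rose by 2.91 ± 0.43 (adjusted p = 0.000456) log2. The co-Smad gene Med was at 0.19 ± 0.05 (adjusted p = 0.0496) log2. The call of Med ended without any of R1 to R3 at 200 nM, any of R1 to R3 at 20 nM, R2 or R3 at 0 nM, or any of R1 to R3 at 2000 nM and with no filter, with the filter over all 12 libraries, in a fit of the 6 libraries alone, after median centring and with limma-voom, with adjusted p of 0.0242 to 0.166 over its alternatives. In the EGF receptor list 1 of 19 was higher and 2 lower. Rhomboid (rho), the protease that releases EGF receptor ligands, had 234, 297 and 208 at 200 nM, against 137, 91.02 and 88.6 at 20 nM, without overlap, and rose by 1.23 ± 0.19 (adjusted p = 0.000685) log2. The inhibitor gene aos and the repressor gene cic were at -0.28 ± 0.08 and -0.42 ± 0.12 log2, a count of 0 without R3 at 200 nM, any of R1 to R3 at 20 nM, or R2 at 0 nM, as well as with no filter, and 1 without R1 or R2 at 200 nM, or R3 at 2000 nM, as well as in a fit of the 6 libraries alone or after median centring. In the Notch list 2 of 23 were lower (8.7%), E(spl)m7-HLH at -0.52 ± 0.14 and E(spl)malpha-BFM at -0.23 ± 0.06 log2. That count was 0 without R1 at 200 nM, R2 or R3 at 20 nM, or R2 at 0 nM, and 1 without R3 at 200 nM, R3 at 0 nM, or R1 or R2 at 2000 nM, as well as with no filter.

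Hedgehog (hh) was the 1 member of 13 in its pathway called higher, 7.69% against 4.38% of all genes, at 0.22 ± 0.06 (adjusted p = 0.0372) log2. The call of hh ended without R2 or R3 at 200 nM, any of R1 to R3 at 20 nM, or R2 at 0 nM and with no filter and in a fit of the 6 libraries alone, with adjusted p of 0.0271 to 0.162 over its alternatives. In the Hippo list 2 of 15 were higher, 13.3% against 4.38% of all genes. They were the Yorkie regulator jub at 0.27 ± 0.06 (adjusted p = 0.012) and the kinase gene hpo at 0.23 ± 0.06 (adjusted p = 0.037) log2. The count was 0 without R2 at 20 nM. It was 1 without any of R1 to R3 at 200 nM, R3 at 20 nM, or R2 at 0 nM. It was also 1 with no filter, in a fit of the 6 libraries alone or after median centring. Of 22 cell death and JNK genes 3 were higher, 13.6% against 4.38% of all genes. Dronc, the initiator caspase, had 1693, 1699.9 and 1588 at 200 nM, against 897, 965 and 843 at 20 nM, without overlap, and rose by 0.88 ± 0.08 (adjusted p = 3.06e-06) log2. The cell death inducer hid averaged 2297 ± 89.5 at 200 nM and 1647 ± 49.1 at 20 nM (SD, n = 3) and rose by 0.48 ± 0.10 (adjusted p = 0.0094) log2, and the TNF ligand gene egr was at 0.50 ± 0.12 (adjusted p = 0.0181) log2. The call of egr ended without R1 at 20 nM (0.0549), without R2 at 20 nM (0.0918) and without R2 at 200 nM (0.0937), with adjusted p of 0.018 to 0.0937 over its alternatives.

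Of 32 genes of the matrix, adhesion and disc eversion, 5 were higher and 7 lower at 200 nM. These were 15.6% and 21.9%, against 4.38% and 3.97% of all genes. Protease genes were among the higher members. AdamTS-A, a secreted metalloprotease, had 3353, 3683 and 3413 at 200 nM, against 1010.3, 866 and 800.2 at 20 nM, without overlap, and rose 3.92-fold, by 1.97 ± 0.09 (adjusted p = 7.91e-09) log2. Mmp2, which cuts basement membrane, was at 0.53 ± 0.14 (adjusted p = 0.0265) log2, while Mmp1 was not called, at 0.28 ± 0.18. Of 2 genes of matrix metalloprotease inhibitors, Reck, a membrane-anchored protein, was higher, at 0.68 ± 0.12 (adjusted p = 0.00212) log2, and Timp was lower. Timp had 23.6, 20.9 and 28.4 at 200 nM, against 62.4, 54.3 and 32.5 at 20 nM and fell by 0.96 ± 0.26 log2 (adjusted p = 0.0374). Papilin (Ppn), a basement membrane proteoglycan, averaged 20430.0 ± 2782 at 200 nM and 9570.0 ± 892 at 20 nM (SD, n = 3) and rose by 1.09 ± 0.14 (adjusted p = 0.000111) log2, and Col4a1 and vkg, which encode collagen IV, were lower at -0.31 ± 0.09 and -0.43 ± 0.12. The integrin alpha subunit genes if and mew were lower at -0.69 ± 0.09 and -0.38 ± 0.11 log2, and their adaptor genes stck and parvin at -0.37 ± 0.08 and -0.34 ± 0.07. Beside these stands tnc, the integrin ligand that rose 10.8-fold. The 8 actomyosin and junction genes tested were not called, with differences of -0.05 to 0.16 log2. The 7 were 3 without R2 at 200 nM, or R1 or R2 at 20 nM, and 4 without R3 at 200 nM, or R3 at 20 nM.

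The apical matrix and chitin list likewise held 5 higher and 6 lower of 24 genes. These were 20.8% and 25%, against 4.38% and 3.97% of all genes. The zona pellucida protein genes neo, pio and fw, which shape the apical matrix, rose by 1.65 ± 0.06 (adjusted p = 7.8e-10), 0.66 ± 0.06 (adjusted p = 7.82e-06) and 0.61 ± 0.11 (adjusted p = 0.00168) log2, and nyo, of the same family, fell by 0.56 ± 0.12. The normalised counts of neo were 7804, 7152 and 7381 at 200 nM, against 2363, 2421 and 2327 at 20 nM. The chitinase genes split, with Cht5 and Cht10 higher by 1.05 ± 0.10 and 0.84 ± 0.17 log2 and Cht7 and Cht6 lower, at -0.95 ± 0.16 and -0.85 ± 0.17. Obst-B, mmy, an enzyme of chitin precursor synthesis, and the deacetylase gene Cda4 were lower, at -0.57 ± 0.11, -0.29 ± 0.07 and -0.38 ± 0.09 log2. Of 20 structural cuticle protein genes tested of 63 in the table, 2 were higher (10%) and 3 lower (15%). Beside Cpr49Ac, Cpr11A rose by 1.81 ± 0.26 (adjusted p = 0.000309) log2, while Cpr66D, Cpr51A and Cpr49Ah were at -1.40 ± 0.21, -1.41 ± 0.26 and -0.55 ± 0.13 log2.

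Markers of the adult muscle precursors, which lie under the disc epithelium, moved both ways. Their summed counts were 20291 to 21495 at 200 nM and 13969 to 15397 at 20 nM, without overlap, and 2 of 11 were higher and 3 lower. These were 18.2% and 27.3%, against 4.38% and 3.97% of all genes. The higher members were Ama, an adhesion protein, and how, an RNA-binding protein, at differences of 0.99 ± 0.09 and 0.72 ± 0.09 log2. Ama averaged 10543 ± 877 at 200 nM and 5284 ± 241 at 20 nM, and how averaged 5030.1 ± 442 at 200 nM and 3046 ± 210.4 at 20 nM (SD, n = 3). These 2 abundant genes weigh heavily in the summed counts, so the difference in sums does not describe the list as a whole. The lower members were the FGF receptor gene htl at -0.60 ± 0.10 (adjusted p = 0.00148), its adaptor stumps at -0.47 ± 0.09 (adjusted p = 0.00482) and the bHLH factor twi at -0.44 ± 0.11 (adjusted p = 0.0256) log2. The other 6, Mef2, zfh1, Him, kon, Nrt and Act57B, were not called, at -0.21 ± 0.09, 0.16 ± 0.13, -0.41 ± 0.26, 0.16 ± 0.22, 0.07 ± 0.14 and -0.21 ± 0.31 log2. Their part in the results for matrix genes was not tested.

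Shares called in the remaining lists are to be set beside 4.38% higher and 3.97% lower of all genes tested. They were 15.4% higher and 7.69% lower for small heat shock and chaperone genes, and 16.7% lower for circadian clock genes. For UDP-glycosyltransferases they were 10% higher and 20% lower, and for cytochrome P450 genes 7.69% higher and 3.85% lower. For glutathione transferases they were 3.7% in each direction. Of 13 small heat shock and chaperone genes 2 were higher, Hsp67Ba at 0.63 ± 0.18 and Hsc70-3 at 0.30 ± 0.06 (adjusted p = 0.00425) log2, and 1 was lower, Hsp60A at -0.27 ± 0.08. Hsp67Ba shares 75.9% of its exonic bases with asRNA:CR43481 on the opposite strand. The small heat shock protein gene Hsp27, which rose, is counted with the effector genes and not in this list. The higher count was 1 without any of R1 to R3 at 200 nM, R1 or R2 at 20 nM, R1 at 0 nM, or R3 at 2000 nM, as well as with no filter, and 4 without R2 at 0 nM, and 5 in a fit of the 6 libraries alone, and the lower count was 0 without any of R1 to R3 at 200 nM, R2 or R3 at 20 nM, or R2 or R3 at 0 nM, as well as with no filter, with TMM scaling or with limma-voom. Of 6 circadian clock genes Pdp1, a bZIP factor, was lower, at -0.95 ± 0.11 (adjusted p = 6.47e-05) log2. The lower count was 2 without R2 at 2000 nM, as well as in a fit of the 6 libraries alone. Of 26 cytochrome P450 genes 2 were higher, Cyp18a1 and Cyp4e2 at 1.03 ± 0.17 (adjusted p = 0.00113) log2, and 1 lower, Cyp310a1. Of 10 UDP-glycosyltransferase genes Ugt317A1 was higher by 0.77 ± 0.10 (adjusted p = 0.000212) and Ugt302C1 and Ugt35A1 lower, at -0.48 ± 0.09 (adjusted p = 0.00403) and -1.10 ± 0.23 (adjusted p = 0.00659) log2. The call of Ugt35A1 ended with limma-voom, with adjusted p of 0.00432 to 0.0685 over its alternatives. Of 27 glutathione transferase genes GstZ2 was higher, at 25.1, 16.4 and 26.4 at 200 nM, against 6.75, 7.91 and 6.76 at 20 nM, and GstT4 lower, at -0.51 ± 0.09 (adjusted p = 0.00218) log2. The call of GstZ2 ended without R1 or R3 at 200 nM, or any of R1 to R3 at 20 nM, with adjusted p of 0.0111 to 0.114 over its alternatives. The higher count was 2 without R2 at 2000 nM, with a pseudocount of 5 or with limma-voom, and the lower count was 2 without R2 or R3 at 200 nM, R1 or R2 at 0 nM, or R1 at 2000 nM, as well as in a fit of the 6 libraries alone. Without a replicate block, no member was called by limma or limma-voom among 34 proteasome, 22 nucleoporin, 17 tRNA synthetase and 8 chaperonin genes. At an unadjusted p under 0.05 there were 2 proteasome genes and 2 tRNA synthetase genes higher, 2 nucleoporin genes lower and 0 chaperonin genes in either direction.

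**Figure D5:**
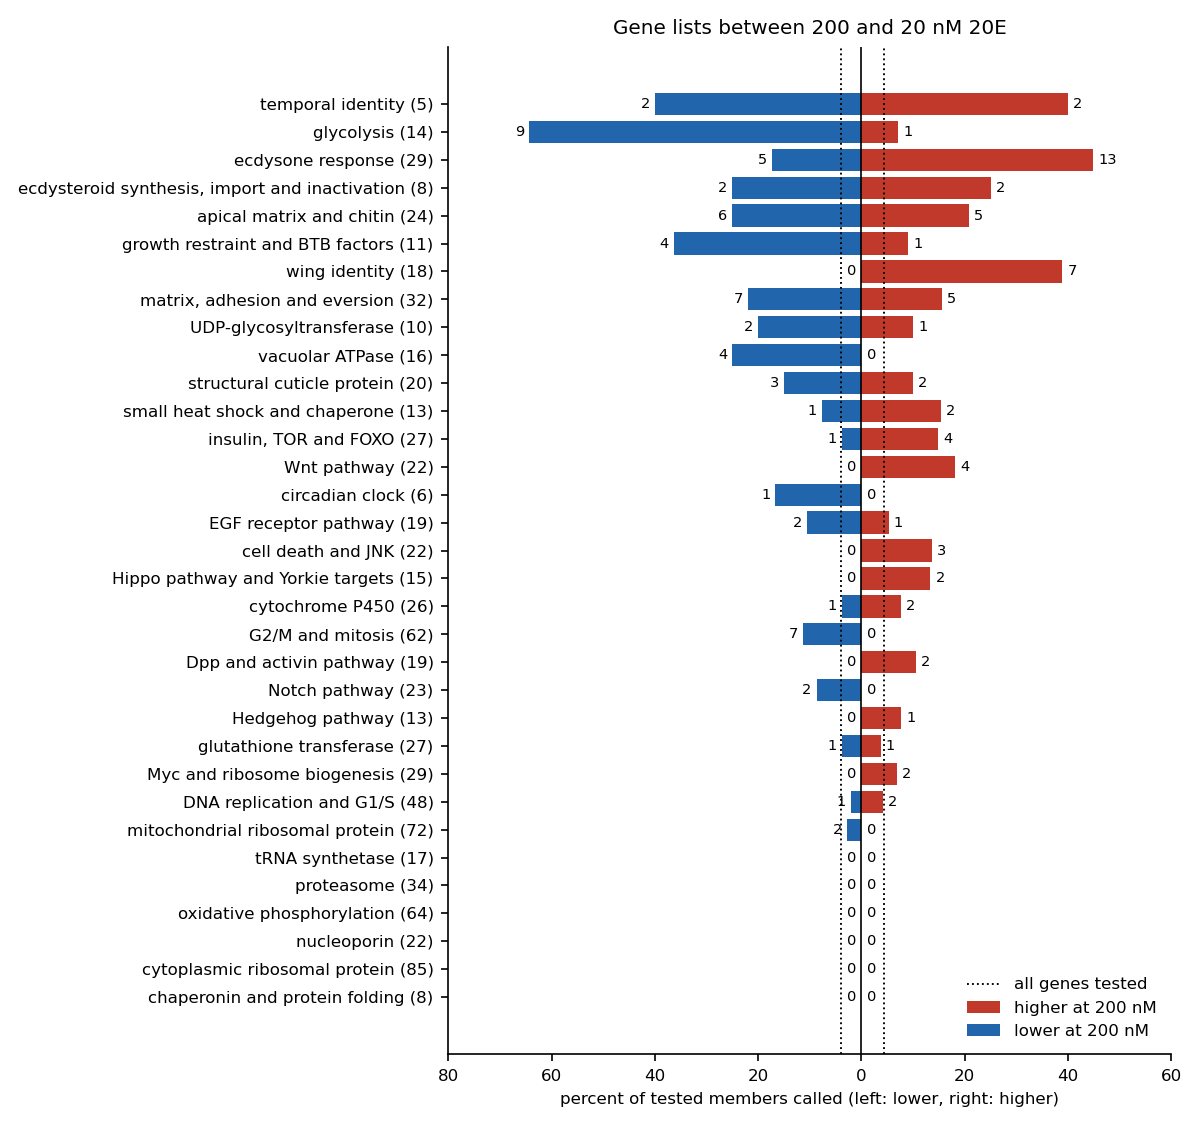
Percent of tested members called higher (red, right) or lower (blue, left) at 200 nM for 33 gene lists, with the number of members tested in brackets, the number called beside each bar and dotted lines for all genes tested (4.38% and 3.97%). Glycolysis stands at 9 lower and 1 higher of 14, ecdysone response at 13 higher and 5 lower of 29 and wing identity at 7 higher of 18, while cytoplasmic ribosomal protein, proteasome and oxidative phosphorylation genes have none called.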

How the data were processed

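RNA was sequenced from wing discs at 4 hormone doses, with 3 libraries per dose. The deposited table of 12216 genes holds a signal per library that the authors made by dividing read counts by size factors, as its header names it and as the values show, since 1 factor for each library made 100% of the entries whole to within 0.001. The authors also deposited the mean of that signal over all libraries, used only to check row order. The submitters' processing notes name DESeq2 1.32.0, Subread 2.0.1, SAMtools 1.13 and HISAT2 2.1.0. No build, annotation or strand setting is given in the sources used here, and no coordinates are printed.

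Values plus 1 were taken to log2 and fitted by limma 3.58.1 (R 4.3.3) with 4 dose means over the 12 libraries, no block and an intensity trend. Contrasts were 200 over 20 nM and the 2 differences between neighbouring dose steps, with two-sided tests and Benjamini-Hochberg adjustment over the 8155 genes at 0.05. "Higher", "lower", "rose" and "fell" mark called genes. Differences are log2 ± SE, and a fold is the antilog, which for low counts depends on the added 1. The median SE was 0.106.

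Genes and the 41 gene lists were chosen with earlier results of these data known. The naming rule took up to 12 higher and 12 lower genes by size, if the higher dose averaged 50 or more, libraries did not overlap and the gene had a name. It added all tested ecdysone response genes, up to 4 called genes per other list and up to 6 per direction of each contrast of steps. Members named beyond it complete a list's count and were chosen after their values were seen. Of 12216 identifiers 12167 were found in the BDGP6.54 annotation (Ensembl 115), used for current symbols and overlapping exons. On simulated data with 8155 genes, the fit recovered 35, 45, 50 and 50 of 50 genes changed by 0.5, 1, 2 and 3 log2, with 8 false calls. The simulation gave every gene the same dispersion of 0.005 and libraries differed only in depth. It therefore does not cover genes with a wider spread.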

Additional observations from a re-analysis of the deposited data

How the results depend on the processing

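The 357 higher and 324 lower genes numbered 327 to 372 and 287 to 334 with pseudocounts of 0.5 and 5, other filters, a fit of the 6 libraries alone, TMM scaling, median centring or limma-voom. Leaving out single libraries gave 257 to 367 higher and 220 to 333 lower genes, the fewest without 20 nM replicate 3. No log2 difference of the 129 named genes changed sign with a call. Of the 118 called ones, 88 were called under every alternative run and 30 were lost under at least 1. Of 1197 values of list counts, 167 moved by over 1.5 times.

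The contrasts of dose steps moved more. Without single libraries, the 14 and 11 genes whose step from 20 to 200 nM was more positive or more negative than that from 0 to 20 nM numbered 7 to 15 and 5 to 20. The 45 and 65 genes whose step from 200 to 2000 nM was more positive or more negative numbered 8 to 40 and 33 to 70. With limma-voom the 11 were 20 and the 45 were 19, and the cause was not tested.

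Labels give replicate numbers 1 to 3 at each dose. Same-numbered 200 and 20 nM libraries had deviations from their dose means that correlated across genes at 0.00503, -0.0527 and 0.192. The value of 0.192, for replicate 3, was the highest of all pairs. By contrast, 20 nM replicate 1 correlated best with 200 nM replicate 2 (0.125). Whether same-numbered libraries were handled together is not stated and was not tested. With the replicate block, 469 genes were higher and 462 lower, and the 14 and 11 became 24 and 20. The block gave more lower members of the G2/M (19), matrix (11), insulin (4), Notch (4), mitochondrial ribosomal protein (4), chaperone, glutathione transferase and circadian clock (2 each) lists. It called 1 lower member of the nucleoporin, Myc, Wnt, Hippo, Dpp and tracheal marker lists, which had none. Higher counts became 2 for Hedgehog, 1 for chaperones and, from 0, 2 for tRNA synthetases and 1 each for cytoplasmic ribosomal proteins and neuron and glia markers. Kr-h1 was called (0.0204). Planned edgeR and DESeq2 fits of recovered reads were not run, because a unit check did not accept those reads. TMM scaling and limma-voom were run on the same reads, which are inferred from the normalised counts. Depth of 9034719 to 27006374 reads limits genes near the filter.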
